A study of Mus musculus with 48 samples.

Results

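Genes of the choroid plexus, the vascular fold in each brain ventricle whose epithelium makes cerebrospinal fluid, were followed across 4 tissues of Tia1 knockout (KO) and wild-type (WT) mice. The members are every probe set whose platform annotation gives 1 of 10 listed symbols: Ttr, Kl, Folr1, Clic6, Kcnj13, Otx2, Aqp1, Slc4a5, Prlr and Enpp2. A probe set is the group of short oligonucleotides that reads 1 transcript. Of these 10 genes, 8 were represented, by 11 of the 45037 probe sets tested, while Prlr, the prolactin receptor, and Enpp2, the enzyme autotaxin, carried no probe set under their symbol and were not analysed here. The 8 genes stand against 17097 genes with at least 1 probe set of their own.

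The array series held 48 samples in 16 groups of 3 mice: KO and WT cerebellum, midbrain, spinal cord and liver, each at 6 and at 3 months of age, on a C57Bl/6 background. In the KO mice, homologous recombination at the exon that was deleted shortens the Tia1 transcript and removes TIA-1, an RNA-binding protein of stress granules, in every cell and from conception. The WT mice were purchased C57BL6/J animals according to the methods of the study, which bred its mice in homozygous matings, whereas the design text calls them littermates, and no other agent was given to either genotype. Each mouse number gave all 4 tissues of an age. Replicates were whole dissected tissues of single mice, so fewer cells of a type and less RNA per cell cannot be told apart in any value below.

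All values are log2 expression values, on which a difference of 1 is a doubling. Of 6 Tia1 probe sets, the one at the deleted exon read 5.14 to 5.52 in KO and 7.49 to 7.70 in WT spinal cord, and 6.38 to 6.61 in KO and 8.16 to 8.41 in WT cerebellum. It overlapped in liver, with 4.56 to 5.25 in KO and 5.18 to 5.63 in WT, and 3 probe sets outside that exon were higher in KO without overlap in all 4 tissues. The tissues carried their defining markers: Pcp2 of Purkinje cells read 12.17 to 12.46 in cerebellum, and Slc6a3, the dopamine transporter, 8.33 to 9.05 in midbrain. The highest value on an array was 13.27 to 13.71, so a Ttr near 13 lies close to the top of the scale, where differences may be compressed, and saturation was not tested. The lower quartile of all values was 2.87, and no fold is given against values near it. Within groups, arrays correlated at 0.985 or higher, and 1 midbrain array and several cerebellar arrays stood apart in the genes described here.

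The choroid plexus epithelium is a sheet of ciliated cells that pumps ions and water into the ventricle and carries hormones and vitamins between blood and cerebrospinal fluid. It hangs in the ventricles of the brain, including the ventricle directly under the cerebellum. How much plexus was dissected with each sample is not given in the sources used here, and its part in the values was not tested. Ttr encodes transthyretin, the thyroxine and retinol-binding protein carrier that this epithelium secretes in bulk and that liver makes for the blood. Kl is the ageing-related co-receptor klotho, and Folr1 is the folate receptor that moves folate into the fluid. Kcnj13 is an inward rectifier potassium channel, Slc4a5 a sodium bicarbonate cotransporter, Aqp1 a water channel and Clic6 an intracellular chloride channel protein. Otx2 is a homeobox transcription factor that the plexus needs in mice and that other brain regions use too.

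To show where transcription of co-varying members starts, 3 promoter windows are given, from 250 bases before to 50 bases after a RefSeq start, with that of Otx2 for comparison. They come from RefSeq on the GRCm38.p6 assembly, 5′ to 3′ on the gene's strand. Capitals mark 3 motifs, searched on both strands: the TATA box TATAAA, the CCAAT box, spelled as its name, and the element TAATCC that Otx2 and its relatives bind. The windows lie at chr1:87394680-87394979 (minus strand), chr5:150952357-150952656 (plus strand), chr6:83237125-83237424 (plus strand) and chr14:48665060-48665359 (minus strand).
Kcnj13: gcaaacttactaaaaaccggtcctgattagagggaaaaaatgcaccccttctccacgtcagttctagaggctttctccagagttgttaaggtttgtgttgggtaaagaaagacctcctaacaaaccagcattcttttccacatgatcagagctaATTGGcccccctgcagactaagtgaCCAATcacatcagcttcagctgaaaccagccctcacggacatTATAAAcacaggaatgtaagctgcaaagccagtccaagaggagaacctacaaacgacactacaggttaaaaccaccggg
Kl: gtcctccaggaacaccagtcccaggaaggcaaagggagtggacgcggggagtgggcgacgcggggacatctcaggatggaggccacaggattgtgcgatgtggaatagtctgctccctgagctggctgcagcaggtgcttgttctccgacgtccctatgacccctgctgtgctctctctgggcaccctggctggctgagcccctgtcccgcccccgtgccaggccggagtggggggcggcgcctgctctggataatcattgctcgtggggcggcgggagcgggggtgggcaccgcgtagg
Slc4a5: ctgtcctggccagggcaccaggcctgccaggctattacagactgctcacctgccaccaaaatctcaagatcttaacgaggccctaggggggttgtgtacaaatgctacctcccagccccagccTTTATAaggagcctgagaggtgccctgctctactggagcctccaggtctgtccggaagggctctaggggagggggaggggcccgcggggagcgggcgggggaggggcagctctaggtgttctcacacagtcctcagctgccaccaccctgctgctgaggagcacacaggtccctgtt
Otx2: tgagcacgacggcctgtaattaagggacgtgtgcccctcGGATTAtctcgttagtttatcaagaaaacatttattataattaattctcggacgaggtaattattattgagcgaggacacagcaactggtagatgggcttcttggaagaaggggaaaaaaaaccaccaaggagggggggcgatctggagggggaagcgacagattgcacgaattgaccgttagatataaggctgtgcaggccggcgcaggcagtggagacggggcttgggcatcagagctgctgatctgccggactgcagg
The Kcnj13 window held a TATA box from base -29 and CCAAT boxes at -96 (reverse strand) and -71. The Slc4a5 window held a TATA box on the reverse strand at -127, and the Kl window none of the 3 motifs. The Otx2 element occurred on the reverse strand at -211 in the Otx2 window shown, which belongs to 1 of 4 Otx2 starts, and in no other of 11 windows of listed genes. No window of Ttr, Folr1, Clic6 or Enpp2 was among the 11, so the motifs were not searched there. Of all 32851 windows, 7.06% held the Otx2 element, 13.6% a TATA box and 37.4% a CCAAT box. None of the motifs overlapped another in the windows shown.

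In cerebellum, 7 of the 8 genes spanned a wide range between mice of the same genotype and age. Ttr read 12.84, 12.95 and 11.06 in KO and 12.14, 12.95 and 12.99 in WT cerebella at 6 months. At 3 months it read 12.85, 8.15 and 7.01 in KO and 12.52, 12.98 and 6.44 in WT cerebella. The lowest and the highest Ttr of the 12 cerebella were both in WT mice, 6.55 apart, and KO and WT values overlapped at each age.

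Kl followed the same mice. It read 7.50, 7.64 and 4.71 in KO and 5.61, 7.49 and 7.84 in WT cerebella at 6 months, then 7.54, 2.91 and 3.30 in KO and 5.33, 7.50 and 2.97 in WT cerebella at 3 months. Kl at or below 3.30 was found in 3 cerebella, those of KO mice 122972 and 122973 and of WT mouse 3, all at 3 months.

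Among the ion and water transport genes, Kcnj13 read 8.70, 8.90 and 6.39 in KO and 7.87, 9.02 and 9.27 in WT cerebella at 6 months, and 8.93, 5.37 and 4.82 in KO and 7.40, 9.07 and 4.88 in WT cerebella at 3 months. Slc4a5 spanned 2.60 to 5.77 over the 12 cerebella, Aqp1 2.75 to 5.70 and Clic6 6.82 to 8.86 (4.12-fold). The channel, the cotransporter and the water channel were thus each low in the mice in which Ttr was low. Folr1 read 6.54, 6.32 and 3.56 in KO and 5.23, 6.93 and 7.07 in WT cerebella at 6 months, and 6.85, 2.84 and 2.96 in KO and 4.94, 7.05 and 3.08 in WT cerebella at 3 months. The 3 cerebella lowest for Ttr were also the 3 lowest for Kl, Kcnj13, Folr1, Slc4a5, Clic6 and Aqp1, and the 6 highest for Ttr were the 6 highest for each of the other 7 genes.

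Otx2 was the exception in size. It spanned only 6.29 to 7.43 in cerebellum, a 2.20-fold range, and its lowest cerebellum, at 6.29, was that of KO mouse 122973 at 6 months, in which Ttr still read 11.06. It shared 1 of its 3 lowest cerebella with Ttr.

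**Figure D1:**
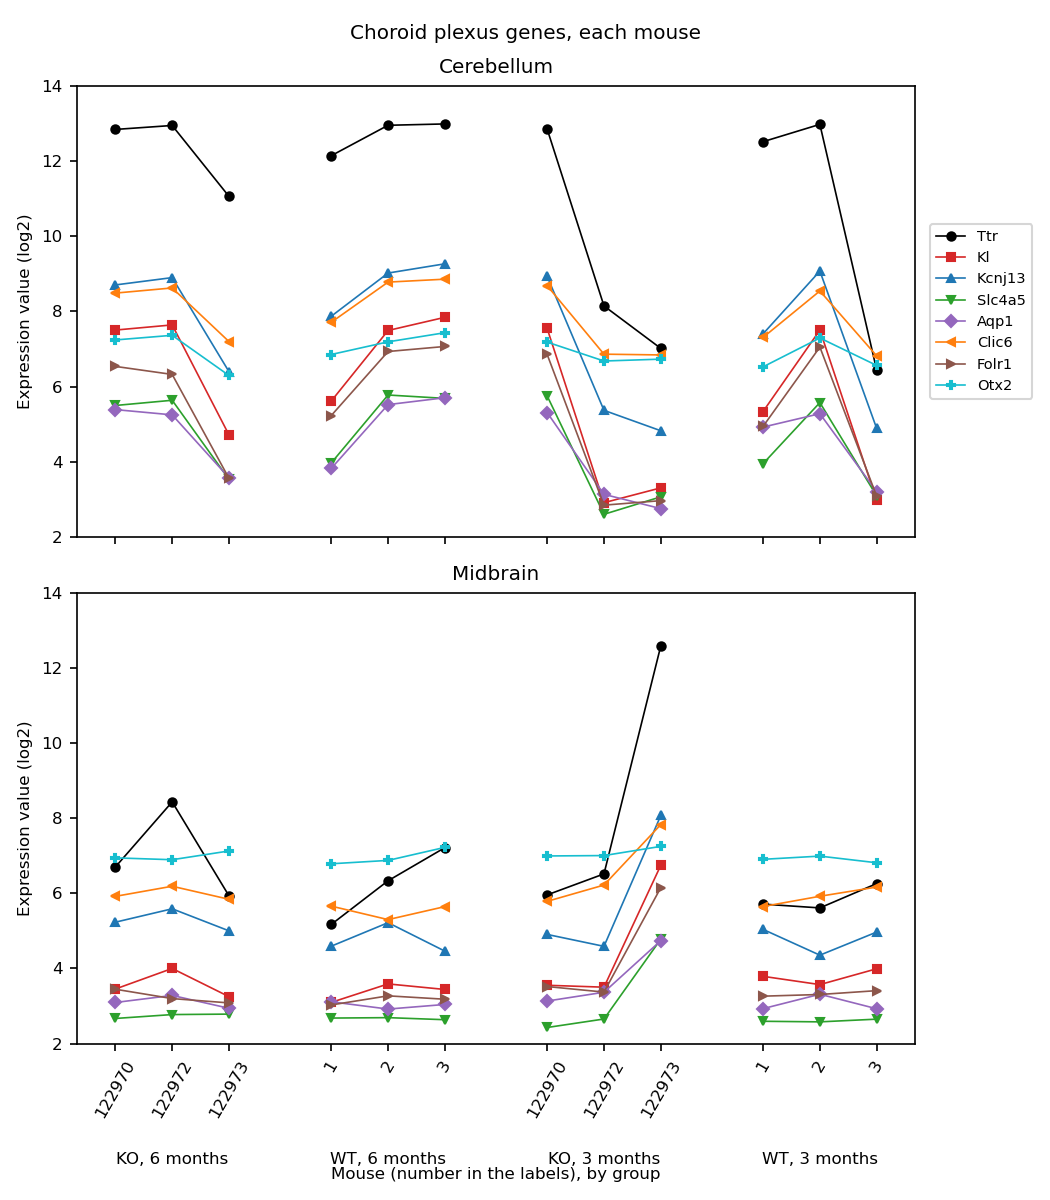
Log2 expression value (y axis) of the 8 genes in each of 12 mice (x axis, by genotype and age), in cerebellum (top) and midbrain (bottom), with lines joining the mice of a group only as a guide to the eye. In cerebellum the genes other than Otx2 are low together in KO mice 122972 and 122973 and WT mouse 3 at 3 months, and in midbrain they are high in KO mouse 122973 at 3 months alone.

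In the 8 cerebella with Ttr above 12, Ttr itself spanned 0.85, whereas Kl spanned 2.51, Folr1 2.13, Aqp1 1.88, Kcnj13 1.86, Slc4a5 1.83 and Clic6 1.55. WT mouse 1 at 3 months had a Ttr of 12.52, close to the highest, beside a Kl of 5.33 that was 2.51 below the highest. Ttr lies near the top of the scale in these 8 cerebella, so its small span is not read as a steadier level.

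Since Ttr fell into 2 clusters in cerebellum, 3 mice up to 8.15 and 9 mice from 11.06, the correlation over mice was taken within the 9. There, Ttr correlated with Folr1 at r = 0.935 (rho = 0.933), with Kcnj13 at r = 0.932 (rho = 0.967) and with Aqp1 at r = 0.923 (rho = 0.80). The exact 2-sided permutation p of r was 0.00223, 0.00201 and 0.000513 for these 3 genes (n = 9). Over the other 4 genes, r was 0.835 to 0.882 and rho 0.767 to 0.867. All 7 genes had an adjusted p of r between 0.00963 and 0.0109 by the exact permutation test (n = 9, Benjamini-Hochberg over 21 correlations), and 6 had an adjusted p of rho under 0.05, Slc4a5 reaching 0.0642. The rank correlation was less firm: 3 genes had an adjusted p of rho under 0.05 with the mean of all probe sets, and none by deviations from group means (lowest 0.075, permutation test, approximate for deviations). Without the 2 mice farthest from the median of Ttr, r was 0.792 to 0.979 (n = 7). Only Kcnj13 kept an adjusted p of r under 0.05 (0.0375, exact permutation test), and no rho did (lowest 0.0583). The call for the other 6 was lost there, and the part of those 2 mice and that of the smaller n cannot be told apart. The members had been listed with these data known.

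In the 11 midbrains below 8.5, r with Ttr was 0.0609 for Folr1 to 0.522 for Kcnj13, and in the 12 spinal cords -0.268 for Folr1 to 0.643 for Kl. None of these 14 correlations passed an adjusted p of 0.05, the lowest being 0.0646 for Kl in spinal cord (permutation test, 100000 resamples). By deviations from group means, Kl passed in midbrain (r = 0.864, adjusted p = 0.00573) and in spinal cord (r = 0.699, adjusted p = 0.0332) by the same permutation test. By that test its rho passed in midbrain (0.836, adjusted p = 0.0498) but not in spinal cord (0.35, adjusted p = 0.398). Deviations cancel within a group, which permuting over all mice ignores, so p by deviations is approximate and may be too small. Without the 2 mice farthest from the median of Ttr, r of Kl over the values themselves was -0.231 in midbrain and 0.564 in spinal cord, neither passing. Kl and Ttr lay near the floor in spinal cord.

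**Figure D2:**
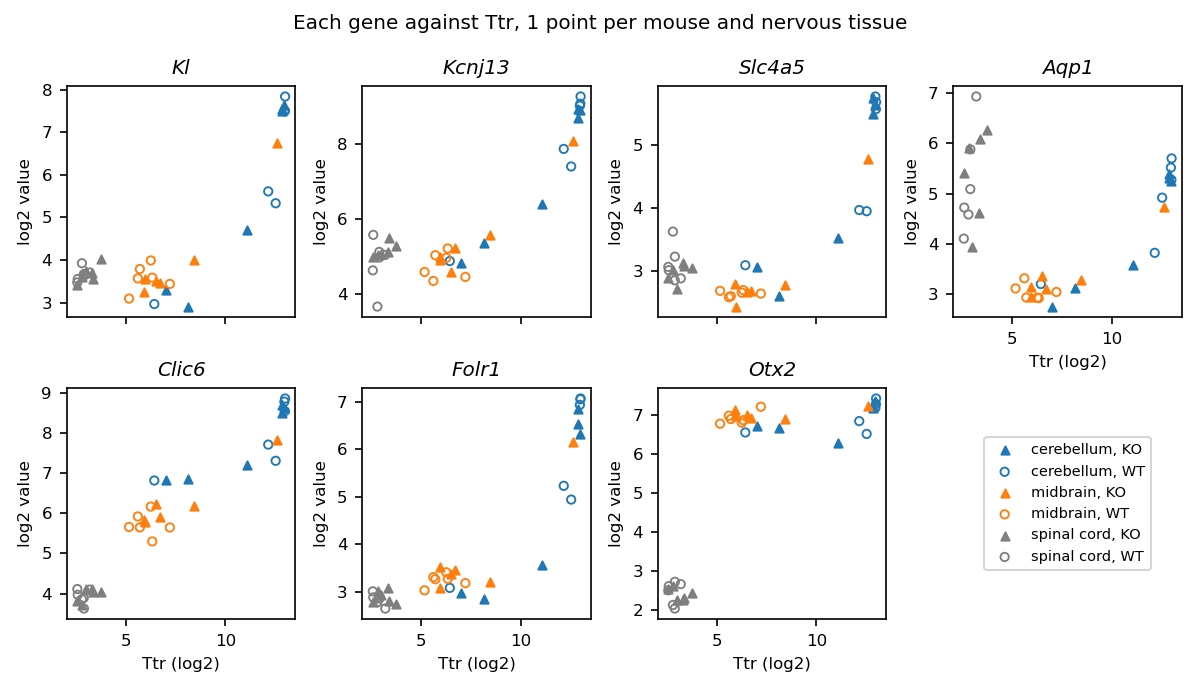
Log2 value of each of 7 genes (y axis) against that of Ttr (x axis) in 36 nervous tissue arrays, 1 point per mouse and tissue (triangles KO, circles WT). Spinal cord lies at the left end, 11 midbrains in the middle, and the cerebella with Ttr above 12 form a steep column at the right, which the midbrain of KO mouse 122973 joins.

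In midbrain, the members were high in 1 mouse, KO 122973 at 3 months. Its Ttr read 12.59, against 5.17 to 8.43 in the other 11 midbrains, 4.15 above the next highest. At 3 months Ttr read 5.96, 6.52 and 12.59 in KO and 5.71, 5.61 and 6.26 in WT midbrains, and at 6 months 6.70, 8.43 and 5.93 in KO and 5.17, 6.33 and 7.22 in WT midbrains. Without this mouse the KO and WT midbrains overlapped at 3 months.

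In the same midbrain, Kl read 6.75, against 3.10 to 3.999 in the others, and Folr1 6.15, against 3.03 to 3.52. Kcnj13 read 8.07, against 4.35 to 5.59, and Slc4a5 4.78, against 2.43 to 2.78. The channel and the cotransporter thus stood clear of the other midbrains. Clic6 read 7.83, against 5.30 to 6.22, and Aqp1 4.74, against 2.92 to 3.37. Otx2, at 7.25, was the highest too, beside 7.22 in the next midbrain.

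All 8 genes were therefore above all other midbrains in that array, where 6.63% of all probe sets were. Only 24 of 45037 probe sets exceeded every other midbrain by more than 1. Of 5 midbrain neuron and 5 cerebellar neuron genes, none lay above or below all other midbrains. Above them lay 2 of 9 thalamus and habenula markers, Lef1 at 4.85 against at most 4.50 and Pou4f1 at 5.51 against at most 5.43. So did 2 of 5 spinal cord Hox genes. These 2 Hox genes read near the floor, Hoxb8 at 2.80 against at most 2.74 and Hoxd8 at 3.21 against at most 3.07. The cerebellum of the same mouse was among the lowest, with a Ttr of 7.01, a Kl of 3.30 and a Kcnj13 of 4.82. Its spinal cord had the highest Ttr of the 12 cords on both probe sets, 3.76 on the first, and 4.53 on the second, which lay between 1.79 and 2.86 in the other cords.

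The other choroid plexus genes, a list of 36 with probe sets, followed the members. In the midbrain of KO mouse 122973, 26 of 36 lay above all other midbrains and none below, with a median difference from the others' median of 0.58. Kcne2, a potassium channel subunit, read 6.26 there, against 2.37 to 2.89. Ecrg4, a secreted peptide precursor, read 8.30, against 5.20 to 6.04, and Steap1, a metalloreductase, 5.51, against 2.83 to 3.27. Car12, a carbonic anhydrase, read 4.70, against 2.52 to 3.33. These 4 were the largest differences of the list.

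**Figure D3:**
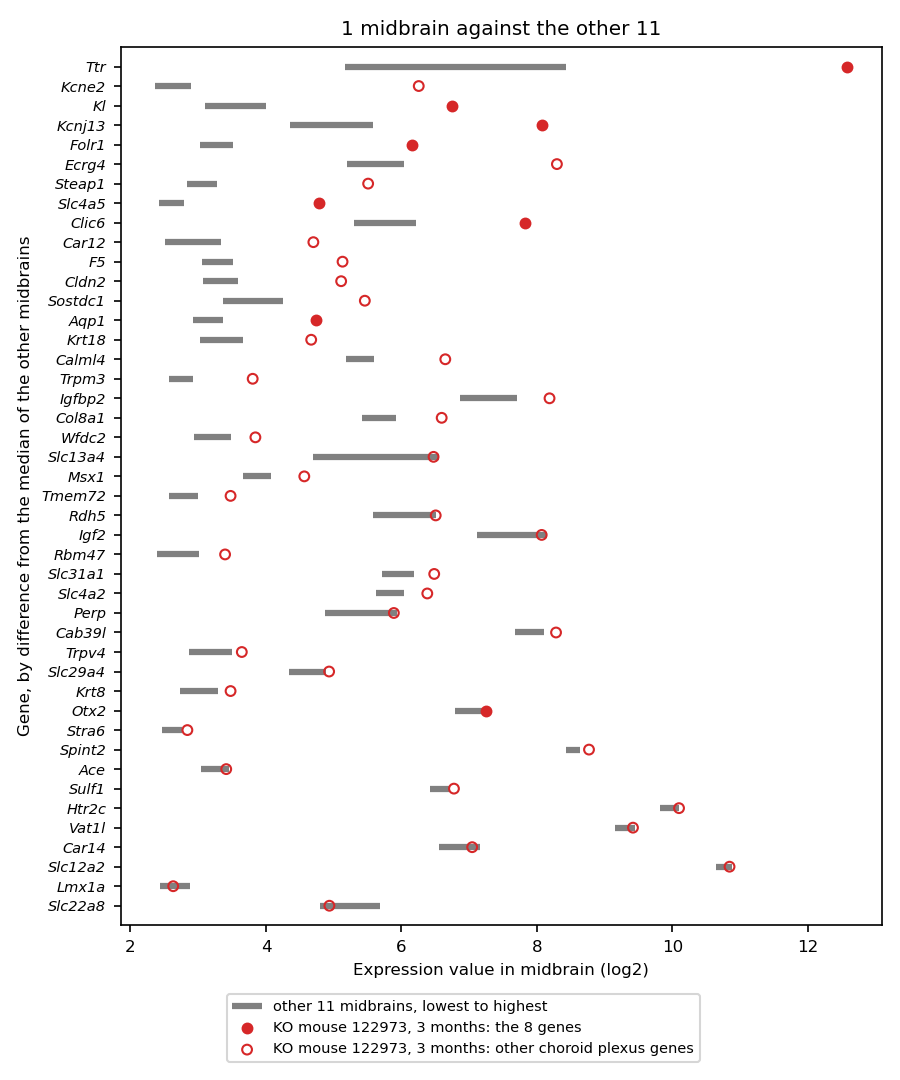
Log2 value in the midbrain of KO mouse 122973 at 3 months (red points, filled for the 8 genes) and the range of the other 11 midbrains (grey bars) for each gene, ordered by the difference from their median. For Ttr, Kl, Kcnj13, Folr1, Slc4a5, Clic6 and Aqp1 the point lies clear of the bar.

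In cerebellum, 21 of the 36 genes spanned more than 1, as did 3.51% of all probe sets, and 19 had their 3 lowest cerebella in the same mice as Ttr. The widest spans were 2.47 to 7.35 for Kcne2, 2.79 to 6.52 for Steap1, 5.74 to 9.21 for Ecrg4 and 2.69 to 6.11 for F5, coagulation factor V, all but Ecrg4 with their low end near the floor. The smallest spans, picked out after the values were seen, were 0.29 for Lmx1a, a roof plate transcription factor, and 0.42 for Slc12a2, a sodium potassium chloride cotransporter. Lmx1a read 2.55 to 2.84, near the floor, so its small span is not read as a steady level. The median span was 1.30 over the list and 0.48 over all probe sets.

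The spread within groups ranked most of the members near the top of the array in cerebellum and midbrain. In cerebellum, the within-group SD was 2.46 for Ttr, 2.00 for Kl, 1.80 for Folr1 and 1.73 for Kcnj13, against a median of 0.133, and they ranked 3, 7, 9 and 10 of 45037 probe sets. Slc4a5 ranked 21, Aqp1 24, Clic6 43 and Otx2 175. Of the 25 probe sets of highest spread in cerebellum, 7 belonged to members and 11 to the other choroid plexus genes. In midbrain Ttr ranked 7, Kcnj13 16, Kl 19 and Folr1 27, but Otx2 9873. The second, dim Kl probe set ranked 42770 in cerebellum. In liver the brightest Ttr probe set, near the top of the scale, had an SD of 0.0489.

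By deviations from group means over the 36 nervous tissue arrays, the 10 genes outside the members most like Ttr were Kcne2 (r = 0.876), Ecrg4 (0.866), Steap1 (0.855), F5 (0.855), Cldn2 (0.850), Ezr (0.840), Prr32 (0.832), Car12 (0.811), Smim22 (0.809) and Igfbp2 (0.80). Cldn2 is a pore-forming claudin, Ezr the membrane linker ezrin, and Igfbp2 an insulin-like growth factor binding protein. Of these 10, 7 were in the list of other choroid plexus genes, whose median r was 0.663, against -0.0183 over 17097 genes. Among the members r was 0.896 for Kcnj13, 0.886 for Kl, 0.843 for Folr1, 0.833 for Clic6, 0.799 for Slc4a5, 0.687 for Aqp1 and 0.439 for Otx2. These correlations are descriptions, since the arrays share mice and 1 midbrain carries much of the range.

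Markers of neighbouring cells were read on the same arrays. In the midbrain of KO mouse 122973 at 3 months, 3 of 9 ependymal markers, Foxj1, Rsph1 and Mia, lay above all other midbrains, with Rsph1 at 6.40 against 5.70 to 6.07. The mean of the ependymal list was 5.63 to 5.84 in KO and 5.42 to 5.72 in WT midbrains, and 3.99 to 4.75 in KO and 4.20 to 4.80 in WT cerebella. The meningeal fibroblast list averaged 5.02 to 5.13 in KO and 5.10 to 5.37 in WT cerebella, 4.78 to 5.19 in KO and 4.25 to 5.35 in WT midbrains, and 6.07 to 6.78 in KO and 5.68 to 6.64 in WT cords, with 1 of 11 genes above all other midbrains in that array. The pineal list averaged 2.78 to 3.03 over KO and WT cerebella and midbrains, near the floor, and its Crx and Sag stayed at or below 3.41. The part of these cells in the members' values was not tested.

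Between tissues, Ttr read 6.44 to 12.99 in cerebellum (median 12.68), 5.17 to 12.59 in midbrain (median 6.30), 2.56 to 3.76 in spinal cord (median 2.90) and 12.79 to 13.00 in liver (median 12.87). By limma over all 48 arrays, it was 4.37 higher in cerebellum than in midbrain (SE 0.61, adjusted p = 6.4e-08), 8.25 higher in cerebellum than in spinal cord (SE 0.61, adjusted p = 4.8e-15) and 1.63 lower in cerebellum than in liver (SE 0.61, adjusted p = 0.0136). The last call was lost without WT mouse 3 of 3 months (-1.11, adjusted p = 0.0668), and since Ttr lies near the top of the scale in liver and in 8 cerebella, no order of these tissues is read from it. The second Ttr probe set gave 3.38, 8.10 and -1.10 for the same 3 differences.

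Cerebellum exceeded midbrain for 7 of the 8 genes, where 55.3% of all probe sets were called in either direction. Kcnj13 was 2.39 higher (SE 0.39, adjusted p = 1.8e-06), Kl 2.03, Clic6 1.88, Folr1 1.76, Slc4a5 1.68 and Aqp1 1.25 higher, with SEs of 0.20 to 0.43. Otx2 differed by -0.04 (SE 0.11, adjusted p = 0.803), with 6.29 to 7.43 in cerebellum and 6.79 to 7.25 in midbrain. The ranges of the homeobox gene overlapped between the 2 tissues. In the 3 cerebella of lowest Ttr it read 6.56, 6.68 and 6.73, all below the lowest midbrain. Below it too were WT mouse 1 at 3 months (6.52) and KO mouse 122973 at 6 months (6.29), at higher Ttr.

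Against spinal cord, cerebellum was higher for 7 genes and lower for Aqp1, against a background of 60.7%. Otx2 was near the floor in spinal cord (2.04 to 2.73) and 4.52 higher in cerebellum (SE 0.11, adjusted p = 7.5e-31), and Clic6 was 3.94 higher (SE 0.20, adjusted p = 1.0e-19). Aqp1 ran the other way, at 2.75 to 5.70 in cerebellum and 3.94 to 6.93 in spinal cord (-0.81, SE 0.30, adjusted p = 0.0175). That call was lost without KO mouse 122973 of either age (-0.56, adjusted p = 0.105 for 3 months, and -0.62, adjusted p = 0.0916 for 6 months) or without WT mouse 1 of 6 months (-0.60, adjusted p = 0.0981).

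Midbrain exceeded spinal cord for Otx2 (4.55), Ttr (3.88) and Clic6 (2.06), Aqp1 was lower there (-2.06), and Kl, Kcnj13, Folr1 and Slc4a5 were not called, where the background was 41.4%. In liver, Aqp1 was high, at 9.22 to 9.72, which was 5.04 above cerebellum (SE 0.30), 6.30 above midbrain and 4.23 above spinal cord, the adjusted p being at most 4.7e-16. Apart from Ttr and Aqp1, the members read 2.42 to 4.32 in liver. Cerebellum was higher than liver for the other 6 genes, with 85.1% of probe sets called. Midbrain was higher than liver for Otx2 (4.21), Clic6 (2.82) and Kcnj13 (1.51) and lower for Ttr and Aqp1 (85.7% called), and spinal cord was higher for Kcnj13 (1.34) and Clic6 (0.76) and lower for Ttr, Aqp1 and Otx2 (85.8% called).

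**Figure D4:**
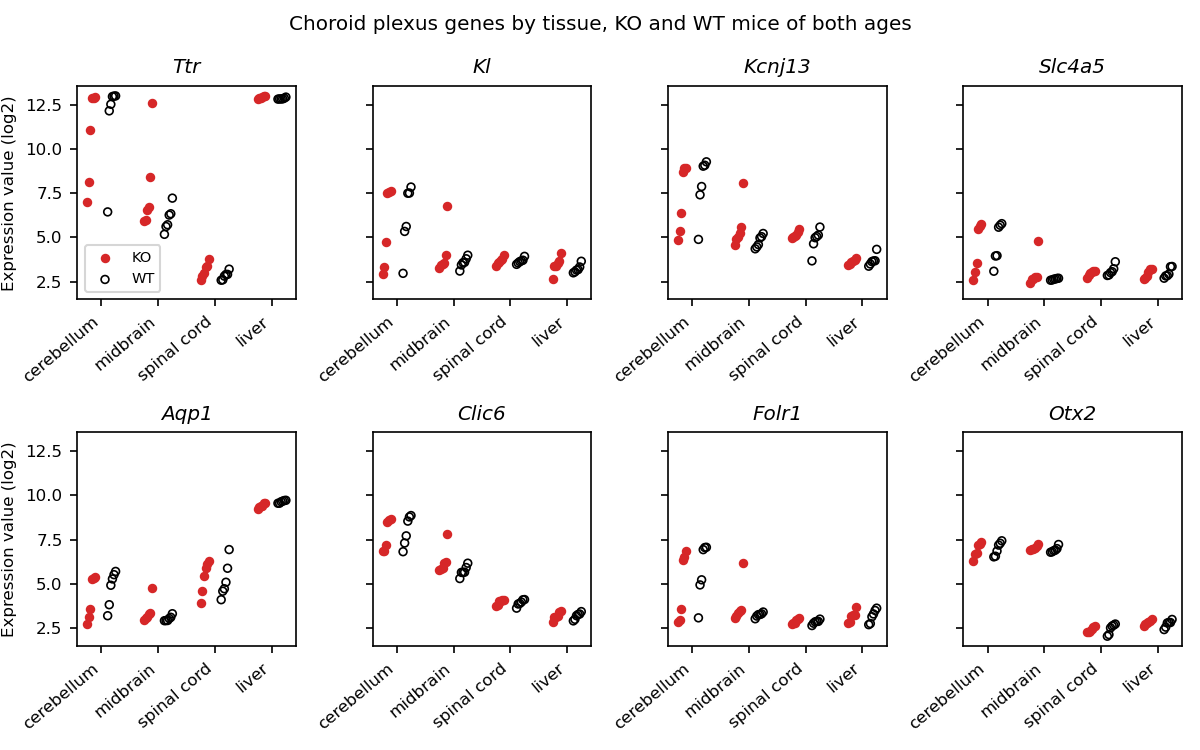
Log2 value of the 8 genes in 4 tissues, 1 point per mouse, KO (filled) left of WT (open), both ages together. Ttr and Aqp1 are high in liver, Otx2 is high in cerebellum and midbrain alike, and the cerebella spread widely in both genotypes.

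In spinal cord, Aqp1 varied most of the 8 genes. It read 4.61, 6.10 and 5.91 in KO and 5.09, 4.10 and 4.72 in WT cords at 6 months, and 5.42, 3.94 and 6.26 in KO and 5.88, 6.93 and 4.58 in WT cords at 3 months. Its within-group SD of 0.958 ranked 73 of all probe sets there, while the brightest Ttr probe set read 2.56 to 3.76. Kcnj13 lay at 3.67 to 5.58 in spinal cord, overlapping the 11 lower midbrains, and the other choroid plexus genes averaged 5.22 to 5.37 in KO and 5.18 to 5.43 in WT cords.

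For the loss of TIA-1, none of the 8 genes was called in any of the 8 comparisons of KO with WT. The background of called probe sets was 0.548% in cerebellum at 3 months and 0.182% at 6 months, 0.242% and 0.142% in midbrain, 0.311% and 0.162% in spinal cord, and 9.44% and 11.5% in liver, by limma with an adjusted p under 0.05. At an unadjusted p under 0.05, 1 gene (Ttr) passed in midbrain at 3 months, as did 6.53% of all probe sets, and none in the other 7 comparisons. The second, dim Kl probe set had an unadjusted p under 0.05 in cerebellum at 6 months, at 2.85, 2.95 and 3.00 in KO and 2.57, 2.46 and 2.60 in WT mice (0.39, SE 0.12, adjusted p = 0.437). In cerebellum, 1 of 8 genes had a positive difference at 3 months and none at 6 months, with medians of -0.71 and -0.36 over the members and 0.02 and 0.00 over all probe sets. These signs rested on single mice: without KO mouse 122973 of 6 months all 8 differences at 6 months were positive (median 0.17). At 3 months the median was -1.78 without KO mouse 122970, -1.57 without WT mouse 3, -0.52 without WT mouse 1, -0.03 without KO mouse 122973, 0.02 without KO mouse 122972 and 0.26 without WT mouse 2.

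In midbrain at 3 months all 8 differences were positive, with a median of 0.76, against -0.01 over all probe sets. The Ttr difference, 2.49 (SE 1.22, 95% confidence interval 0.02 to 4.96, adjusted p = 0.760), was the largest in size of all 45037 probe sets. It was 0.38 without KO mouse 122973, where Kl stood at -0.26, Slc4a5 at -0.07 and Kcnj13 at -0.04, and the median over the members at 0.09. A size ranking of these KO midbrains was therefore headed by a gene whose difference rested on 1 mouse.

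In liver, Ttr read 12.79, 12.89 and 12.88 in KO and 12.81, 12.86 and 12.82 in WT mice at 6 months, and 12.90, 13.00 and 12.96 in KO and 12.82, 12.92 and 12.82 in WT mice at 3 months. Aqp1 read 9.32, 9.22 and 9.41 in KO and 9.72, 9.71 and 9.64 in WT livers at 6 months (-0.37, SE 0.60, adjusted p = 0.756 by limma). At 3 months it read 9.58, 9.41 and 9.55 in KO and 9.67, 9.56 and 9.55 in WT livers. The SE of Aqp1 is that of the fit over all tissues, and its within-group SD was 1.14 in cerebellum, 0.958 in spinal cord and 0.0786 in liver. With liver fitted alone, the adjusted p of its difference at 6 months was 0.150.

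**Figure D5:**
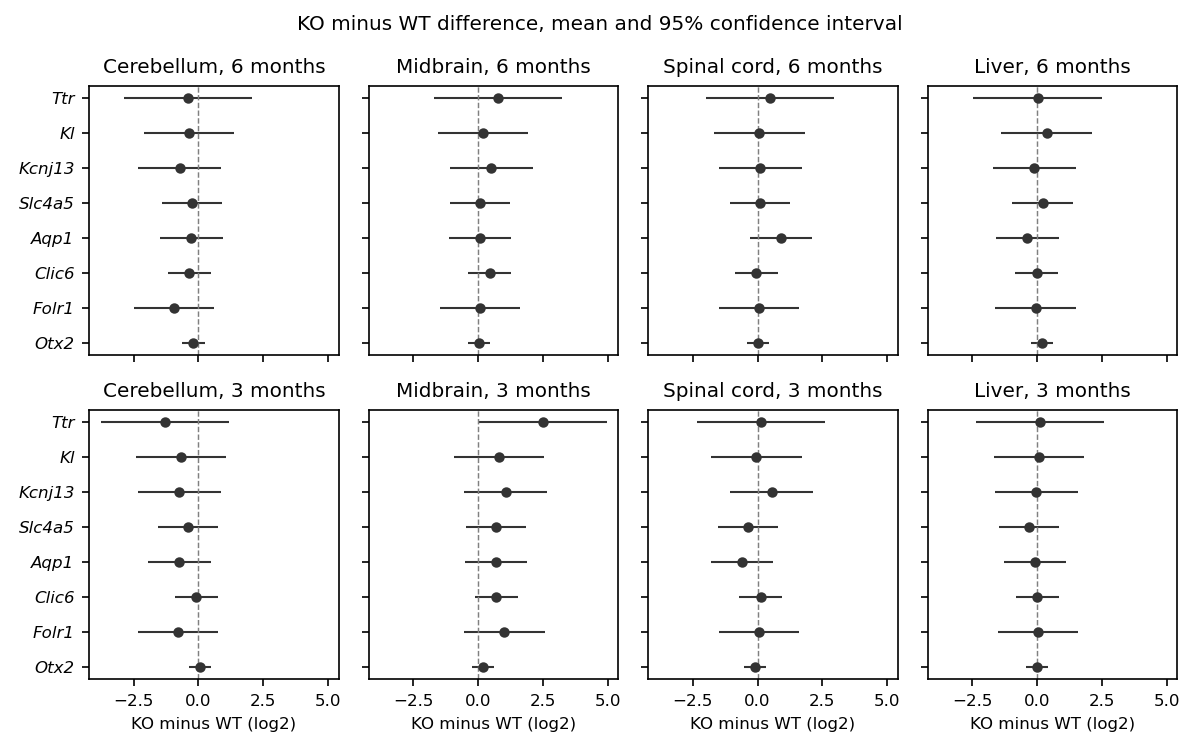
KO minus WT difference (x axis, log2) of each gene with its 95% confidence interval from limma, in 4 tissues at 6 months (top) and 3 months (bottom). The intervals for Ttr are the widest, its within-group SD being the largest of these genes in cerebellum and midbrain. The spread of each gene is shared over all groups. Of the Ttr intervals, only that of midbrain at 3 months lies above 0.

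With age, all 8 genes were higher at 6 than at 3 months in cerebellum of both genotypes, by a median of 1.17 in KO and 1.16 in WT mice, against 0.00 and 0.02 over all probe sets. None was called, beside 0.0844% of probe sets in KO and 1.13% in WT cerebellum, while 3 genes in KO and 1 in WT mice had an unadjusted p under 0.05, beside 5.69% and 11.1% of all probe sets. Ttr was 2.95 higher in KO (SE 1.22, adjusted p = 0.713), the largest difference of all probe sets, and 2.05 higher in WT cerebellum (SE 1.22, adjusted p = 0.577). Without WT mouse 3 of 3 months, 6 of 8 genes were higher in WT cerebellum (median 0.40), with Ttr at -0.05 and Aqp1 at -0.09. In KO cerebellum the median was 0.63 without KO mouse 122972 of 3 months and 2.31 without KO mouse 122970 of 3 months, with 7 or 8 genes higher whichever mouse was left out. Of the 36 other choroid plexus genes, 32 in KO and 35 in WT cerebellum were higher at 6 months, with none called by limma and 8 and 11 at an unadjusted p under 0.05, on the same mice.

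In KO midbrain all 8 genes were lower at 6 than at 3 months, with a median of -0.64, and without KO mouse 122973 of 3 months 4 of 8 were higher (median 0.01, Ttr 0.78 and Kcnj13 0.53). In WT midbrain 3 of 8 were higher. Neither gave a call, beside 0.00444% and 0.258% of probe sets. In spinal cord (0.091% in KO and 0.242% in WT mice) and liver (10.9% in KO and 10.7% in WT mice), none of the 8 genes was called for age. The difference of the KO effect between 6 and 3 months was called for none of them in cerebellum (0.0577% called), midbrain (0.0444%), spinal cord (0.0533%) or liver (7.14%), nor was the KO effect in liver against that in the nervous tissues (9.12%). At an unadjusted p under 0.05, none of the 8 genes passed in these 5 comparisons.

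Of the partners of the members in hormone, folate, ion and klotho handling, 24 of 27 listed genes had probe sets. Dio2, the deiodinase that turns thyroxine into its active form and thus acts on the cargo of transthyretin, rose in KO midbrain and spinal cord at both ages. It read 8.05, 7.99 and 7.99 in KO and 7.39, 7.44 and 7.38 in WT midbrains at 3 months (0.61, SE 0.13, adjusted p = 0.0286), and was 0.72 higher at 6 months (adjusted p = 0.00556). In spinal cord it read 7.51, 7.81 and 7.59 in KO and 6.81, 6.81 and 6.82 in WT mice at 3 months (0.82, SE 0.13, adjusted p = 0.000423) and was 0.77 higher at 6 months (adjusted p = 0.00189). KO and WT values did not overlap in these 4 comparisons, and the KO mouse with high Ttr in midbrain had a Dio2 like that of its group.

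The other call in midbrain was Slc19a1, the reduced folate carrier, which fell by 0.37 in KO mice at 3 months (SE 0.08, adjusted p = 0.0271) and rose in KO liver by 0.41 and 0.47 at 3 and 6 months (adjusted p = 0.000761 and 0.000110). None of the 24 was called by limma in KO cerebellum at either age, with 3 at an unadjusted p under 0.05 at each, beside 7.95% of all probe sets at 3 and 4.97% at 6 months. In liver 5 rose and 1 fell at 3 months, and 3 rose and 2 fell at 6 months, beside 9.44% and 11.5% of all probe sets called. Cish and Socs2, targets and brakes of growth hormone and prolactin receptor signalling through STAT5, rose by 2.00 (SE 0.28, adjusted p = 3.6e-06) and 1.71 (SE 0.27, adjusted p = 2.8e-05) in KO liver at 6 months. Cish read 8.83, 9.14 and 9.41 in KO and 6.37, 7.90 and 7.11 in WT livers at 6 months.

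Slc4a5 and Aqp1 lie on chromosome 6, as Tia1 does. Counted from Tia1 in RefSeq order, with a minus sign for lower coordinates, Slc4a5 lies at -44 array genes and -3.2 Mb and Aqp1 at -172 array genes and -31.1 Mb. Neither was called between KO and WT mice in any tissue.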

How the data were processed

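RNA from 4 tissues of KO and WT mice was hybridised to 48 Affymetrix HT MG-430 PM arrays. The deposited table holds log2 expression values, which the authors made by robust multi-array averaging (RMA: background correction, quantile normalization and summary of probes) in R 2.14.0. Their genome build is not given in the sources used here, and chromosomes and gene order were taken from RefSeq on GRCm38.p6. Quantile normalization over tissues gives all arrays a like distribution, so levels are relative. The number of arrays limits the precision.

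Of 45141 rows, 104 controls were left out. Of the 45037 probe sets tested, 28898 had 1 symbol (17097 genes), 551 several and 15588 none. A gene was read by its brightest probe set, and levels of different probe sets were not compared. The values were fitted in R 4.3.3 with limma 3.58.1, 1 mean per group over 16 groups (residual df 32, prior df 4.97), with Benjamini-Hochberg adjustment over all probe sets and a threshold of 0.05. The fit was tested on simulated data. Array medians were 3.95 to 4.32. The groups come from the labels. KO mouse numbers 122970, 122972 and 122973 and WT numbers 1 to 3 recur at both ages, and each age was treated as separate mice, 12 in all, since tissues were taken after death.

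Correlations with Ttr over mice used exact permutation tests for 9 mice and 100000 resamples above that (Python 3.11.15, scipy 1.17.1), within clusters split at gaps over 2 in Ttr, a limit set after the values were seen. Named genes were the members, Tia1, the 4 largest changes of a list and the 10 genes most like Ttr. Beyond this rule, some markers of tissues and neighbouring cells were named, and the smallest spans and pituitary genes after values were seen. The members and lists were chosen with earlier results of these data known. Alternatives were a stricter threshold, a minimum fold, nested F decisions, tissues or ages fitted alone, renormalization within tissue, a filter on low values (10 of the 11 probe sets passed), another prior, means over probe sets, replicate blocks (statmod 1.5.0) and leaving out each mouse.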

Additional observations from a re-analysis of the deposited data

Results flagged for a closer look

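No value of the 8 choroid plexus genes was set apart by a difference between groups under test. Of their 24 measured partners, only Dio2, Slc19a1, Cish, Socs2 and Lpar1 were looked up here. All of these but Dio2 were set apart, because the KO effect itself differed between ages or tissues by a limma interaction term. The genes looked up were picked by name, all but Lpar1 being described above for their KO calls. The share set apart is therefore no result about the 24 partners. Of all probe sets, 0.0444% were called for the ages in midbrain, 7.14% in liver, and 9.12% for liver against the nervous tissues. In midbrain, the KO effect on Slc19a1, the reduced folate carrier, was 0.65 higher at 6 than at 3 months (SE 0.11, adjusted p = 0.0097). In liver, the KO effect at 6 months exceeded that at 3 months by 1.79 for Cish (SE 0.40, adjusted p = 0.0039) and 1.38 for Socs2 (SE 0.38, adjusted p = 0.021), both brakes on cytokine receptor signalling. For Lpar1, a receptor of lysophosphatidic acid, the same difference in liver was -1.33 (SE 0.25, adjusted p = 0.00052).

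Between tissues, the KO effect in liver minus that in the nervous tissues was 1.27 for Socs2 (SE 0.22, adjusted p = 0.000119), 1.225 for Cish (SE 0.23, adjusted p = 0.00032) and 0.45 for Slc19a1 (SE 0.07, adjusted p = 7.95e-06). Single outlying samples were not tested.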

How the results depend on the processing

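No choroid plexus gene was called between KO and WT mice, between ages or for their interaction under any alternative run. A comparison of KO with WT or of the ages uses only the mice of its own 2 groups, so leaving out any other mouse could not change its value. With such values included, leaving out 1 mouse turned the sign of 110 of 1536 member values, none of them called. Among the values followed singly it turned 3: Ttr at 6 minus 3 months in WT cerebellum (-0.052 to 3.22), and KO minus WT in midbrain at 3 months for Kl (-0.26 to 1.37) and Kcnj13 (-0.040 to 1.70). The number of genes correlated with Ttr in cerebellum was 1 of 7 without the 2 mice farthest from its median. By deviations from group means, where p is approximate, it was 1 in midbrain and 1 in spinal cord (Kl in both), and 1 in spinal cord with the mean of all probe sets. At an adjusted p under 0.01, Aqp1 in cerebellum minus spinal cord and Ttr in cerebellum minus liver were not called, and with the mean of all probe sets Clic6 in spinal cord minus liver was not (0.31, adjusted p = 0.142). With the mouse as a replicate block over its tissues (consensus correlation 0.0303), Ttr in midbrain at 3 months stayed at 2.49 (adjusted p = 0.759), and with the mouse number across ages as a replicate block (-0.0018), Ttr at 6 minus 3 months in KO cerebellum stayed at 2.95 (adjusted p = 0.717). Neither block changed a call, and same-numbered mice of the 2 ages did not deviate together (0 of 24 pairs above 0.1, highest 0.0915). Of the counts followed under the alternatives, 477 stayed equal or near to the main count and 4 moved. Of the single values, 900 kept their sign and call, 13 lost their call and 3 turned sign. The causes were not tested.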

Other observations

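Genes of the pituitary, looked at after their values were seen, also varied widely between mice but not with the choroid plexus genes. In deviations from group means over the 36 nervous tissue arrays, r with Ttr was -0.148 for Gh (growth hormone), -0.0936 for Prl (prolactin) and 0.0462 for Pomc. In the midbrain of KO mouse 122973 at 3 months, where Ttr was highest, Gh read 2.38, below the other 11 midbrains. Among the 25 probe sets of highest spread in cerebellum, 2 had no symbol and are unnamed here. They followed Ttr, with r = 0.952 and r = 0.935, beside 0.965 for the second Ttr probe set. The other probe sets without a symbol were not searched. These correlations are descriptions over arrays that share mice.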
